A study of Danio rerio with 12 samples.

Results

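The genes described here build and run the mitotic machinery: the kinases and checkpoint proteins of mitosis, the chromosomal passenger complex, the kinetochore, the spindle motors and assembly factors, the cytokinesis apparatus, condensin and the proteolysis factors that end mitosis. They were chosen by symbol for their function, as a list of 44 zebrafish genes sorted into 8 roles. The choice was made with earlier results of these data known, so shares set beside those of all genes are descriptions and not tests. The list matched 42 of the 35117 gene IDs in the count table, and 41 of them had enough reads to be tested. RNA-seq was done on mpeg-GFP+ cells, the embryonic macrophages marked by a macrophage-expressed reporter, which were FAC-sorted from whole zebrafish embryos at 28 and 50 hpf (hours post-fertilisation). The control embryos were wildtype tg(mpeg-GFP), from a line that the study's methods give as also carrying Et(shhb:KalTA4,UAS-E1b:mCherry), and were not stated to be siblings of the mutants. The csf1rDM embryos were csf1raj4e1/j4e1;csf1rbre01/re01 tg(mpeg-GFP), homozygous from fertilisation in every cell for mutations of both zebrafish paralogues of the macrophage growth factor receptor Csf1r. All embryos were raised at 28 °C, and the study's methods state that 1-phenyl 2-thiourea was added at 24 hpf against pigmentation. Each of the 4 groups had 3 libraries, each from pooled embryos (35 a library, but 70 in the csf1rDM group at 50 hpf). A value is thus an average over a pool and over all sorted cells in it. The labels do not say whether the pools were separate clutches or sorts, so p-values measure the spread between these pools.

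When a cell enters mitosis, condensin compacts the replicated chromosomes, the kinetochore assembles on each centromere, and motor proteins and nucleation factors build a bipolar spindle whose microtubules attach to the kinetochores. The spindle checkpoint holds the anaphase-promoting complex (APC/C) inactive until every kinetochore is attached, after which separase cuts cohesin and the central spindle directs cytokinesis. Most of these genes are transcribed periodically, with a peak in G2 and M phase, so their RNA is most abundant in dividing cells. Embryonic macrophages of the zebrafish divide while they spread from the yolk through the tissues, and the comparisons address whether this programme depends on Csf1r at either stage.

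Library totals were between 8641139 and 20261650 counts. The 18 macrophage genes summed to between 23807 and 24619 counts per 1000000 (CPM) in control and between 28378 and 29280 CPM in csf1rDM libraries at 28 hpf, and to 17588 to 19508 and 22251 to 26178 CPM at 50 hpf. These sums were thus higher in csf1rDM at both stages and lower at 50 hpf in both genotypes, without overlap. Single genes did not all follow them. The macrophage reporter's own gene, mpeg1 (ENSDARG00000055290), was at 2437 to 4989 CPM. It was higher at the later stage in each genotype, by 0.51 on the log2 scale. In csf1rDM against control, mfap4 ENSDARG00000090783 was lower at both stages (-0.23 and -0.42) and mfap4 ENSDARG00000088745 higher (0.33 and 0.89). Between the stages, 4 of the 17 tested genes were lower and 1 higher in each genotype by the thresholds given below. By genotype, 1 was higher at 28 hpf and 0 at 50 hpf, with 0 lower. The check of the targeted genes is weak, since the alleles need not remove the RNA: csf1ra was at 214 to 235 CPM in control and 239 to 301 CPM in csf1rDM libraries at 28 hpf, and csf1rb was at 135 to 161 and 61.4 to 97.8 CPM. At 50 hpf csf1ra was at 350 to 445 CPM in control and 339 to 405 CPM in csf1rDM libraries. The csf1rb values at 50 hpf were 257 to 441 and 153 to 214 CPM. In 4 libraries, csf1rDM 28 hpf replicate 3, control 50 hpf replicates 1 and 2 and csf1rDM 50 hpf replicate 3, skeletal muscle genes summed to between 2395 and 4055 CPM, against 5.05 to 508 CPM in the other 8. Counts of mitotic genes are therefore also given without these 4 libraries.

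Mitotic gene expression fell in csf1rDM macrophages at 50 hpf and at 28 hpf did not pass the thresholds for any gene. Summed over the 41 tested genes, expression was 3980 ± 395 CPM (SD, n = 3) in control and 3658 ± 371 CPM in csf1rDM macrophages at 28 hpf, and the ranges of the groups overlapped. At 50 hpf the sums were 2828 ± 201 CPM in control and 1517 ± 261 CPM in csf1rDM macrophages, and the highest csf1rDM library (1818 CPM) lay below the lowest control library (2681 CPM). A bulk library cannot tell fewer cells in mitosis from less mitotic RNA in each cell. CPM were scaled by the TMM method and not by gene length, so levels are compared between libraries and not between genes.

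**Figure D1:**
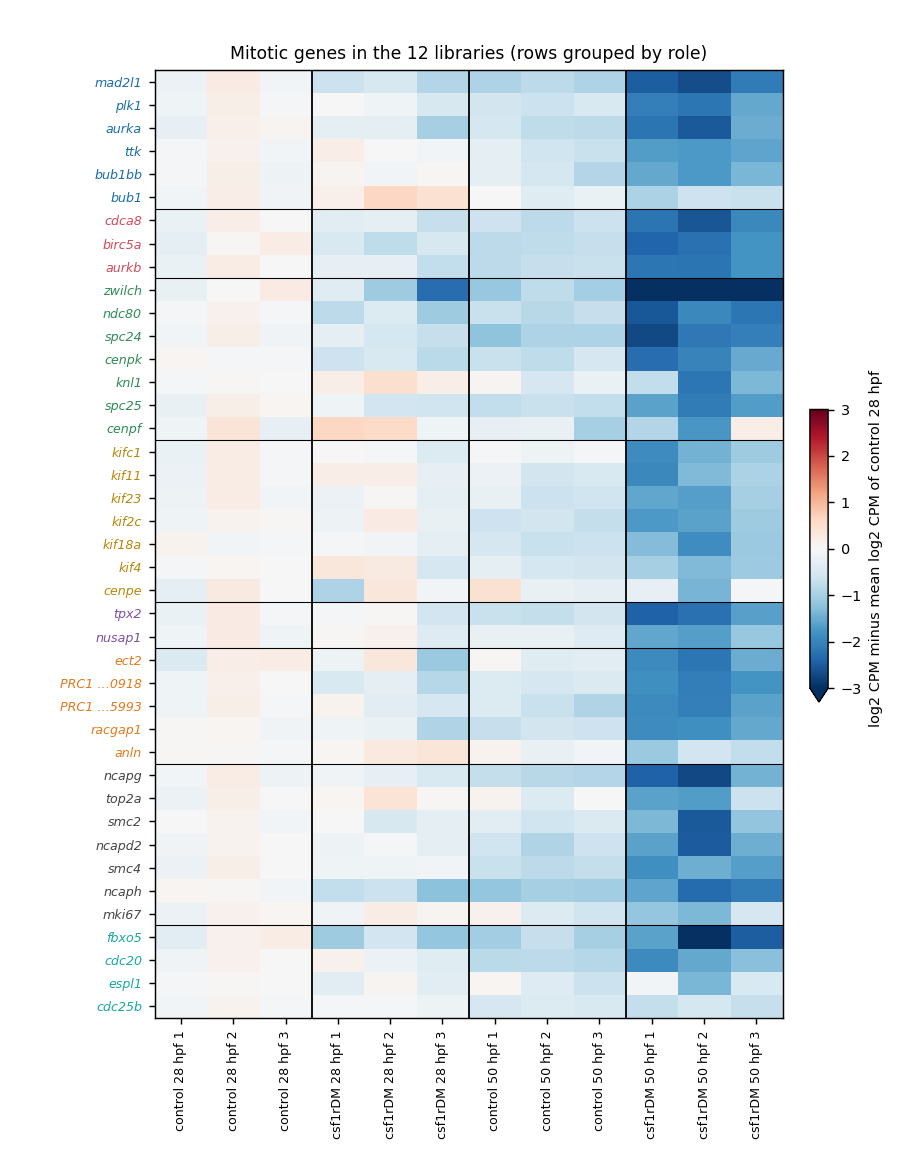
Expression of the 41 tested mitotic genes (rows, grouped by role and coloured by role on the left) in the 12 libraries (columns), as the log2 CPM minus the mean log2 CPM of the 3 control libraries at 28 hpf, with colours limited to values between -3 and 3. The 3 csf1rDM libraries at 50 hpf are the darkest blue columns, and csf1rDM 50 hpf replicate 3 is the palest of them, with the highest value of its group for 30 of the 41 genes.

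At 50 hpf, 23 of the 41 genes were lower in csf1rDM than in control macrophages and 0 were higher, at an adjusted p under 0.01 and a fold change above 2 (an absolute log2 fold change above 1) in edgeR's quasi-likelihood F test. Of all 16429 genes tested, 3.04% were lower and 2.29% higher by this rule. Counts of genes that fell or rose are by this rule throughout. At an adjusted p under 0.05 with no fold limit, 37 of the 41 were lower and 0 higher, against 11.4% and 8.44% of all genes. The 41 fold changes were all below 0, from -2.40 for zwilch to -0.15 for cenpf on the log2 scale, with a median of -1.13 against -0.02 for all genes. In 37 of the 41 genes the 3 csf1rDM libraries all lay below the 3 control libraries, which held for 20.5% of all genes.

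The count at 50 hpf moved with single libraries. It was 17 without csf1rDM 50 hpf replicate 2, the lowest of its group for 26 genes, and 27 without csf1rDM 50 hpf replicate 3. Other scalings, filters and fits gave 17 to 26. Without the 4 libraries rich in muscle RNA, which left 1 control library at 50 hpf whose spread is then assumed to be that of the other groups, 15 genes were lower and 0 higher, all 15 of them among the 23, with a median log2 fold change of -1.27. Beside the higher macrophage sums, marker sums of 4 of the 9 lists for other cell types did not overlap between the groups at 50 hpf, 3 higher and 1 lower in csf1rDM. The 9 blood progenitor genes summed to 49.3 to 60.1 CPM in control and 63.1 to 77.3 CPM in csf1rDM libraries, the 10 keratinocyte genes to 195 to 291 and 408 to 516 CPM, and the 6 neutrophil genes to 232 to 272 and 361 to 458 CPM, with 1 gene of each list higher by the thresholds and 0 lower. The 10 pigment genes summed to 55.0 to 99.7 CPM in control and 23.6 to 42.0 CPM in csf1rDM libraries, with 0 genes past the thresholds. In the other 5 lists the sums overlapped, with 1 neural gene lower and 1 yolk and liver gene higher. No marker of these lists was at 0 in every library, and the part of these cells in the mitotic values was not tested.

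At 28 hpf, 0 of the 41 genes passed the thresholds in edgeR or in DESeq2, where 2.23% of all genes were lower and 1.84% higher in edgeR. At an unadjusted p under 0.05 by edgeR, 12 genes were lower and 1 higher. The share of all genes at that limit is not given here, so this count has no background beside it. At an adjusted p under 0.05, 7 genes (17.1%) were lower and 0 higher, against 10.9% and 9.66% of all genes. The 7 were zwilch, ncaph, ndc80, mad2l1, birc5a, cenpk and one of the PRC1 genes. The median log2 fold change of the 41 was -0.17 and 10 values were above 0, with bub1 (0.42 ± 0.15 SE) the highest. The csf1rDM libraries lay wholly below the control libraries for 13 genes and wholly above for 2, knl1 and anln, against 21.8% and 19.3% of all genes. Without csf1rDM 28 hpf replicate 1, zwilch passed the thresholds (log2 fold change -1.63, edgeR adjusted p = 0.00516), and the median over the genes was -0.31. Without the 4 muscle-rich libraries, which left 2 csf1rDM libraries at 28 hpf, 0 passed, and the median was -0.12 with 29 of the 41 values below 0. The blood progenitor genes summed to 97.8 to 108 CPM in control and 128 to 160 CPM in csf1rDM libraries at 28 hpf, the 9 endothelial genes to 164 to 171 and 177 to 198 CPM, and the 12 skeletal muscle genes to 8.004 to 12.4 and 82.6 to 2395 CPM. These 3 sums were higher in csf1rDM without overlap, with 1 blood progenitor gene higher by the thresholds and 0 endothelial or muscle genes past them. The sums of the other 6 lists for other cell types overlapped, with 1 neural, 1 yolk and liver and 1 pigment gene lower. The part of these cells in the mitotic values was not tested.

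**Figure D2:**
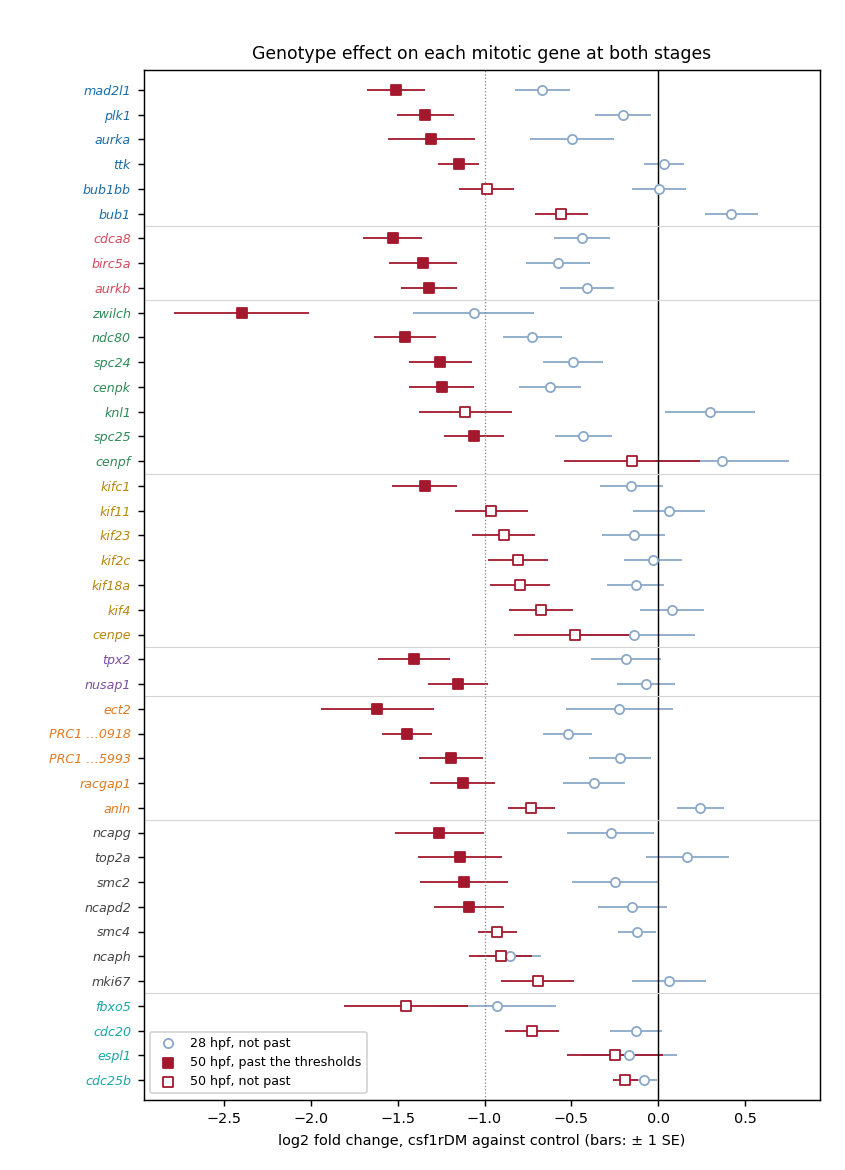
Log2 fold change of csf1rDM against control for each of the 41 genes at 28 hpf (circles) and 50 hpf (squares), with bars of ± 1 SE from edgeR and filled symbols past the thresholds. Gene names are coloured by role. All squares lie below 0 and 23 are filled, whereas the circles scatter around a median of -0.17 and none is filled.

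Of the 6 mitotic kinases and checkpoint genes, 4 fell in csf1rDM macrophages at 50 hpf and 0 passed at 28 hpf, with median log2 fold changes of -1.23 and -0.10. The polo kinase gene plk1 (ENSDARG00000058471), whose product drives mitotic entry and centrosome maturation, gave 208, 257 and 225 CPM in control against 226, 208 and 165 CPM in csf1rDM at 28 hpf. At 50 hpf it gave 156, 146 and 167 CPM in control and 55.3, 50.7 and 79.05 CPM in csf1rDM libraries. The genotypes overlapped at 28 hpf and were apart at 50 hpf, where plk1 was 2.53-fold lower (log2 fold change -1.34 ± 0.16 SE with an edgeR adjusted p of 0.000117). The checkpoint kinase gene ttk (ENSDARG00000041361), which encodes Mps1, gave 148, 168 and 144 CPM in control against 174, 151 and 144 CPM in csf1rDM at 28 hpf. Its 50 hpf values were 124, 102 and 95.6 CPM in control and 48.03, 45.99 and 51.04 CPM in csf1rDM libraries. The genotypes overlapped for ttk at 28 hpf (log2 fold change 0.03 ± 0.12 SE), and it was 2.22-fold lower in csf1rDM at 50 hpf (-1.15 ± 0.12 SE with an edgeR adjusted p of 3.7e-05). The spindle pole kinase gene aurka gave 60.2, 79.2 and 75.4 CPM in control against 57.7, 59.4 and 35.4 CPM in csf1rDM at 28 hpf and 49.7, 42.003 and 41.2 against 15.7, 12.5 and 25.4 CPM at 50 hpf. The csf1rDM libraries were below the controls at both stages, at 28 hpf narrowly and not past the test (-0.50 ± 0.24 SE, edgeR adjusted p = 0.173). The fall of aurka passed at 50 hpf (2.47-fold, edgeR adjusted p = 0.00273), though not without either csf1rDM 50 hpf replicate 1 or replicate 2 or when only the libraries compared were fitted (adjusted p between 0.0112 and 0.0136).

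The other checkpoint genes split by stage. Levels of mad2l1, whose product Mad2 binds and holds back Cdc20, were 50.9, 67.4 and 54.4 CPM in control against 36.5, 40.99 and 31.2 CPM in csf1rDM at 28 hpf and 30.1, 33.1 and 30.003 against 10.2, 9.09 and 13.4 CPM at 50 hpf. Both comparisons were without overlap. Among the 6 genes of this role mad2l1 had the largest fall at 50 hpf (2.84-fold, edgeR adjusted p = 6.01e-05) and the lowest log2 fold change at 28 hpf (-0.67 ± 0.16 SE, adjusted p = 0.0103). In contrast, the kinetochore kinase gene bub1 gave 42.8, 52.1 and 42.7 CPM in control against 50.4, 70.8 and 62.7 CPM in csf1rDM at 28 hpf and 45.7, 35.3 and 39.9 against 23.6, 29.7 and 28.6 CPM at 50 hpf. All 3 csf1rDM libraries were below the controls at 50 hpf (log2 fold change -0.56 ± 0.15 SE with an edgeR adjusted p of 0.0214), while at 28 hpf the mutant values were mostly the higher ones and overlapped the controls (0.42 ± 0.15 SE, adjusted p = 0.0677). For bub1bb, which encodes the checkpoint protein BubR1, the values were 35.2, 40.6 and 32.6 CPM in control against 38.2, 33.8 and 36.9 CPM in csf1rDM at 28 hpf and 29.3, 25.2 and 19.7 against 12.4, 10.9 and 14.002 CPM at 50 hpf. They overlapped at 28 hpf and separated at 50 hpf by a log2 fold change of -0.99 ± 0.16 SE (adjusted p by edgeR = 0.000888), just inside the fold limit. It passed that limit in 8 alternatives, among them without control 50 hpf replicate 3 (-1.15) and without csf1rDM 50 hpf replicate 3 (-1.10).

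All 3 measured members of the chromosomal passenger complex, which corrects wrong kinetochore attachments and later moves to the central spindle, fell at 50 hpf, with a median of -1.36 against -0.44 at 28 hpf. Its kinase gene aurkb (ENSDARG00000037640) gave 86.8, 117 and 99.1 CPM in control against 83.9, 84.2 and 60.04 CPM in csf1rDM at 28 hpf and 58.1, 62.001 and 62.9 against 22.4, 22.03 and 28.8 CPM at 50 hpf. The groups did not overlap at either stage, and aurkb was 2.5-fold lower at 50 hpf (edgeR adjusted p = 0.000109) against a log2 fold change of -0.41 ± 0.15 SE at 28 hpf (adjusted p = 0.0807). The borealin gene cdca8 gave 60.3, 79.3 and 70.05 CPM in control against 54.8, 56.998 and 43.1 CPM in csf1rDM at 28 hpf and 44.8, 40.4 and 44.7 against 15.2, 11.7 and 18.2 CPM at 50 hpf. Again the mutants were wholly below the controls, by 2.88-fold at 50 hpf (edgeR adjusted p = 5.81e-05) and by a log2 fold change of -0.44 ± 0.16 SE at 28 hpf (adjusted p = 0.0737). The survivin gene birc5a gave 16.8, 20.6 and 23.5 CPM in control against 14.7, 11.9 and 14.3 CPM in csf1rDM at 28 hpf and 11.6, 11.8 and 12.4 against 3.88, 4.26 and 5.78 CPM at 50 hpf, which was 2.56-fold lower at 50 hpf (edgeR adjusted p = 0.000395). These 3 calls held in each of the 12 fits that left out 1 library and in the other fits planned. The fit without the 4 muscle-rich libraries was not among those planned, and birc5a was not past the thresholds in it. The remaining member of the complex, incenp, was not analysed here because no ID carried its symbol.

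Of the 7 tested kinetochore genes, 5 fell at 50 hpf (median log2 fold change -1.25) and 0 passed at 28 hpf (median -0.49). The microtubule-binding subunit gene ndc80 (ENSDARG00000071694) gave 68.9, 78.3 and 68.8 CPM in control against 41.8, 54.4 and 34.4 CPM in csf1rDM at 28 hpf and 44.9, 40.3 and 44.7 against 12.3, 18.8 and 16.002 CPM at 50 hpf. Its mutant libraries were below the controls at both stages, by 1.65-fold at 28 hpf (log2 fold change -0.72 ± 0.17 SE with an edgeR adjusted p of 0.00992, inside the fold limit) and by 2.75-fold at 50 hpf (adjusted p = 0.000115). The spc24 gene, for the inner end of the Ndc80 complex, gave 41.5, 49.9 and 40.8 CPM in control against 36.5, 30.7 and 27.2 CPM in csf1rDM at 28 hpf and 18.9, 22.9 and 23.03 against 6.698, 9.89 and 10.5 CPM at 50 hpf. Its partner spc25 gave 32.5, 42.7 and 39.1 CPM in control against 34.6, 25.4 and 25.1 CPM in csf1rDM at 28 hpf and 22.8, 23.8 and 22.6 against 12.5, 8.84 and 11.8 CPM at 50 hpf. At 50 hpf spc24 was 2.38-fold and spc25 2.09-fold lower in csf1rDM macrophages (edgeR adjusted p = 0.000412 and 0.000884), and spc25 dropped inside the fold limit without csf1rDM 50 hpf replicate 2 (log2 fold change -0.92). The remaining subunit of this complex, nuf2 (ENSDARG00000034624), had 0 counts in all 12 libraries, which allows up to 0.143 to 0.364 CPM in a library for counting error alone, and it was not tested. The other subunits were counted in every library, and whether the annotation behind the table assigned nuf2 reads elsewhere was not tested, so the limit holds only for reads counted under this ID.

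Among the other kinetochore genes, zwilch showed the largest fall of all 41 genes. It encodes a subunit of the complex that brings dynein and checkpoint proteins to kinetochores, and gave 20.5, 23.5 and 28.2 CPM in control against 18.7, 11.4 and 4.92 CPM in csf1rDM at 28 hpf and 10.9, 14.1 and 11.7 against 1.94, 2.17 and 2.82 CPM at 50 hpf. The mutants were below the controls at both stages, by 5.27-fold at 50 hpf (log2 fold change -2.40 ± 0.39 SE with an edgeR adjusted p of 0.000886), while at 28 hpf the csf1rDM libraries were far apart from each other (-1.06 ± 0.35 SE, adjusted p = 0.0483). The inner kinetochore gene cenpk gave 27.2, 25.5 and 25.4 CPM in control against 16.9, 18.98 and 14.8 CPM in csf1rDM at 28 hpf and 16.3, 15.3 and 18.5 against 5.38, 6.51 and 9.11 CPM at 50 hpf, a fall of 2.37-fold at 50 hpf (edgeR adjusted p = 0.000524) that missed the threshold when the libraries compared were fitted alone (0.0104). The scaffold gene knl1 gave 34.04, 36.5 and 35.7 CPM in control against 40.4, 49.2 and 40.8 CPM in csf1rDM at 28 hpf and 37.6, 24.9 and 30.6 against 21.2, 7.88 and 14.002 CPM at 50 hpf. The mutants were above the controls at 28 hpf, without overlap but not past the test (0.30 ± 0.26 SE with an edgeR adjusted p of 0.466), and below them at 50 hpf. At 50 hpf knl1 just missed the threshold (log2 fold change -1.11 ± 0.27 SE with an edgeR adjusted p of 0.0107), which it passed without csf1rDM 50 hpf replicate 1 (-1.50, adjusted p = 0.00136). The cenpf gene, for a large coiled-coil protein of the outer kinetochore, gave 43.4, 62.04 and 40.4 CPM in control against 73.1, 71.2 and 43.8 CPM in csf1rDM at 28 hpf and 40.6, 40.7 and 24.1 against 26.1, 14.2 and 54.4 CPM at 50 hpf. The highest and lowest 50 hpf values of cenpf were both from csf1rDM libraries, and its genotype effect was -0.15 ± 0.39 SE (adjusted p by edgeR = 0.836).

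The motors were the role with the fewest falls among those above: 1 of 7, kifc1, passed at 50 hpf, although 6 of 7 were lower at an adjusted p under 0.05. Differences between roles were not tested. The median log2 fold change was -0.80 at 50 hpf and -0.13 at 28 hpf. The minus-end motor gene kifc1 (ENSDARG00000001558) gave 84.3, 113 and 94.1 CPM in control against 95.1, 93.5 and 72.9 CPM in csf1rDM at 28 hpf and 93.1, 87.4 and 94.7 against 25.998, 35.8 and 46.4 CPM at 50 hpf. Its control values overlapped between the stages, and the mutants were 2.54-fold lower at 50 hpf (edgeR adjusted p = 0.00029), without overlap. The kif11 gene, for the Eg5 motor that pushes spindle poles apart, gave 256, 341 and 282 CPM in control against 337, 335 and 246 CPM in csf1rDM at 28 hpf and 256, 199.9 and 213 against 76.3, 117 and 150.2 CPM at 50 hpf. The 50 hpf groups did not overlap, and the change lay just inside the fold limit (-0.96 ± 0.21 SE with an edgeR adjusted p of 0.00634), which it passed without csf1rDM 50 hpf replicate 3 (-1.22).

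The remaining motors had smaller genotype effects at 50 hpf. The kif23 gene, for the motor of centralspindlin, gave 74.1, 96.4 and 77.99 CPM in control against 73.3, 84.9 and 66.9 CPM in csf1rDM at 28 hpf and 70.01, 52.96 and 54.5 against 28.02, 26.3 and 41.3 CPM at 50 hpf. The kif2c gene, for the MCAK microtubule depolymerase, gave 64.8, 77.4 and 72.7 CPM in control against 63.9, 84.9 and 61.6 CPM in csf1rDM at 28 hpf and 46.4, 48.7 and 43.4 against 21.5, 23.5 and 34.2 CPM at 50 hpf. Both were without overlap at 50 hpf, at log2 fold changes of -0.89 ± 0.18 and -0.80 ± 0.17 SE (adjusted p by edgeR = 0.00411 and 0.00561), and both passed the thresholds only without csf1rDM 50 hpf replicate 3 (-1.14 and -1.05). The chromokinesin gene kif4 gave 61.8, 66.5 and 64.7 CPM in control against 81.6, 77.4 and 45.1 CPM in csf1rDM at 28 hpf and 52.1, 44.7 and 43.9 against 32.3, 25.7 and 30.2 CPM at 50 hpf, where the genotype effect was -0.67 ± 0.19 SE (adjusted p by edgeR = 0.022). The kif18a gene, whose product dampens chromosome movements, gave 29.6, 25.7 and 26.7 CPM in control against 26.6, 25.9 and 22.5 CPM in csf1rDM at 28 hpf and 19.3, 17.3 and 17.6 against 11.1, 7.56 and 12.5 CPM at 50 hpf, where the genotype effect was -0.80 ± 0.17 SE (adjusted p by edgeR = 0.00553). For both genes the 28 hpf groups overlapped and the 50 hpf groups did not. The cenpe gene, for the kinetochore motor CENP-E, gave 22.01, 31.99 and 26.1 CPM in control against 13.96, 33.4 and 24.9 CPM in csf1rDM at 28 hpf and 36.3, 22.6 and 21.9 against 22.1, 9.97 and 25.9 CPM at 50 hpf. Its groups overlapped at both stages, and its genotype effects were -0.14 ± 0.35 and -0.48 ± 0.35 SE (adjusted p by edgeR = 0.826 and 0.397).

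Both spindle assembly factors fell at 50 hpf. The tpx2 gene (ENSDARG00000078654), for a factor that nucleates microtubules around chromosomes and activates Aurora A, gave 121, 166 and 136 CPM in control against 135, 144 and 93.6 CPM in csf1rDM at 28 hpf and 87.9, 85.6 and 95.2 against 26.3, 29.7 and 45.1 CPM at 50 hpf. The genotypes overlapped at 28 hpf, and at 50 hpf every mutant library was below every control, 2.65-fold on average (edgeR adjusted p = 0.000452). The microtubule-bundling factor gene nusap1 gave 65.6, 85.6 and 65.9 CPM in control against 74.1, 78.001 and 54.6 CPM in csf1rDM at 28 hpf and 61.2, 61.2 and 54.5 against 24.2, 22.8 and 32.5 CPM at 50 hpf, 2.22-fold lower at 50 hpf (edgeR adjusted p = 0.000499), with the same pattern of overlap. Both calls held in each fit that left out 1 library.

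Of the 5 cytokinesis genes, 4 fell at 50 hpf (median log2 fold change -1.19) and 0 passed at 28 hpf (median -0.22). The 2 IDs with the symbol PRC1, the bundler of antiparallel microtubules in the central spindle, stand for prc1a and prc1b, and which is which is not given in the tables used. The ID ENSDARG00000100918 gave 68.5, 84.4 and 74.5 CPM in control against 55.003, 61.6 and 41.8 CPM in csf1rDM at 28 hpf and 56.9, 53.4 and 56.3 against 21.2, 18.01 and 21.9 CPM at 50 hpf. The other, ENSDARG00000005993, gave 58.6, 71.3 and 61.7 CPM in control against 68.97, 50.9 and 44.99 CPM in csf1rDM at 28 hpf and 47.6, 39.9 and 33.9 against 16.9, 15.3 and 20.8 CPM at 50 hpf. At 50 hpf they were 2.73-fold and 2.29-fold lower in csf1rDM macrophages (edgeR adjusted p = 3.13e-05 and 0.000602), and at 28 hpf only the first was free of overlap (-0.52 ± 0.14 SE, adjusted p = 0.0198). The centralspindlin GTPase-activating gene racgap1 gave 38.1, 38.9 and 34.7 CPM in control against 34.2, 32.5 and 19.9 CPM in csf1rDM at 28 hpf and 23.1, 25.3 and 24.1 against 10.05, 10.4 and 12.7 CPM at 50 hpf, 2.18-fold lower at 50 hpf (edgeR adjusted p = 0.00102). The ect2 gene, for a guanine nucleotide exchange factor of the cleavage furrow, gave 20.2, 31.6 and 32.1 CPM in control against 24.4, 34.8 and 12.6 CPM in csf1rDM at 28 hpf and 27.9, 21.2 and 21.8 against 7.23, 6.11 and 9.705 CPM at 50 hpf. It was 3.07-fold lower at 50 hpf (edgeR adjusted p = 0.00364), and the call was lost without control 50 hpf replicate 1 or without csf1rDM 50 hpf replicate 1 or 2 (adjusted p between 0.0120 and 0.0201).

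The anillin gene anln (ENSDARG00000060917), for the scaffold of the contractile ring, gave 116, 117 and 109 CPM in control against 118, 140.4 and 146 CPM in csf1rDM at 28 hpf. At 50 hpf its values were 122, 97.02 and 109 CPM in control and 52.97, 76.5 and 67.9 CPM in csf1rDM libraries. The mutants were above the controls at 28 hpf, without overlap but not past the test (0.24 ± 0.13 SE with an edgeR adjusted p of 0.236), and below them at 50 hpf, inside the fold limit (-0.73 ± 0.14 SE, adjusted p = 0.0023).

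Of the 7 condensin and chromosome structure genes, 4 fell at 50 hpf (median log2 fold change -1.09) and 0 passed at 28 hpf (median -0.15). The condensin core is the pair smc2 and smc4, to which condensin I adds ncapd2, ncapg and ncaph. Levels of smc2 were 124, 135 and 118 CPM in control against 123, 89.8 and 104 CPM in csf1rDM at 28 hpf and 98.4, 82.1 and 91.9 against 48.8, 21.7 and 54.8 CPM at 50 hpf. Levels of smc4 were 112, 144 and 125 CPM in control against 115, 115 and 120.0 CPM in csf1rDM at 28 hpf and 79.6, 73.6 and 76.96 against 35.4, 45.4 and 40.2 CPM at 50 hpf. At 50 hpf the mutants were below the controls for both subunits, smc2 by 2.17-fold (edgeR adjusted p = 0.00755) and smc4, with the smaller error, by a log2 fold change of -0.93 ± 0.11 SE (adjusted p = 0.000116), inside the fold limit. The call of smc2 was lost in 11 alternatives, 8 of which left out 1 library, control 28 hpf replicate 2 or 3, csf1rDM 28 hpf replicate 3, any control 50 hpf replicate or csf1rDM 50 hpf replicate 1 or 2 (adjusted p up to 0.0434), and smc4 passed without csf1rDM 50 hpf replicate 2 (-1.02).

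The subunits particular to condensin I are given next. For ncapd2 the values were 120.2, 139.6 and 131 CPM in control against 117, 127 and 108 CPM in csf1rDM at 28 hpf and 86.1, 70.04 and 84.2 against 42.5, 23.2 and 47.3 CPM at 50 hpf. For ncapg they were 127, 158 and 121 CPM in control against 125, 114 and 97.97 CPM in csf1rDM at 28 hpf and 81.9, 75.8 and 73.3 against 24.9, 20.7 and 50.6 CPM at 50 hpf. Both genes overlapped between genotypes at 28 hpf and were 2.13-fold and 2.39-fold lower in csf1rDM at 50 hpf (edgeR adjusted p = 0.00229 and 0.00402), although ncapd2 was inside the limits without csf1rDM 50 hpf replicate 2 (-0.83) or when only the compared libraries were fitted, and ncapg was lost in that fit and without any 1 control 50 hpf library or csf1rDM 50 hpf replicate 1 or 2 (adjusted p between 0.0110 and 0.0264). The kleisin subunit gene ncaph (ENSDARG00000061468) gave 72.99, 72.3 and 66.6 CPM in control against 42.4, 44.9 and 30.1 CPM in csf1rDM at 28 hpf and 31.6, 35.5 and 34.4 against 23.5, 14.3 and 16.4 CPM at 50 hpf. It was lower in csf1rDM to about the same extent at both stages, -0.85 ± 0.18 SE at 28 hpf and -0.91 ± 0.18 SE at 50 hpf (edgeR adjusted p = 0.00502 and 0.00377), in each case inside the fold limit, and passed at 50 hpf without csf1rDM 50 hpf replicate 1 (-1.14).

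The topoisomerase gene top2a (ENSDARG00000024488), whose product untangles sister chromatids, gave 164, 209 and 184 CPM in control against 192, 244 and 190.3 CPM in csf1rDM at 28 hpf and 198, 139.9 and 184 against 60.5, 57.9 and 118 CPM at 50 hpf. It was 2.2-fold lower in csf1rDM at 50 hpf (edgeR adjusted p = 0.00499), without overlap. Without control 50 hpf replicate 1 or 3 or csf1rDM 50 hpf replicate 1 or 2, or with only the libraries compared, the adjusted p was between 0.0167 and 0.0302. The proliferation marker gene mki67, for the Ki-67 protein that coats mitotic chromosomes, gave 236, 292 and 276 CPM in control against 248, 309.8 and 282 CPM in csf1rDM at 28 hpf and 290.3, 199.8 and 178 against 119.9, 105 and 187 CPM at 50 hpf. Its groups overlapped at both stages, with log2 fold changes of 0.06 ± 0.21 and -0.69 ± 0.21 SE (adjusted p by edgeR = 0.874 and 0.0362).

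**Figure D3:**
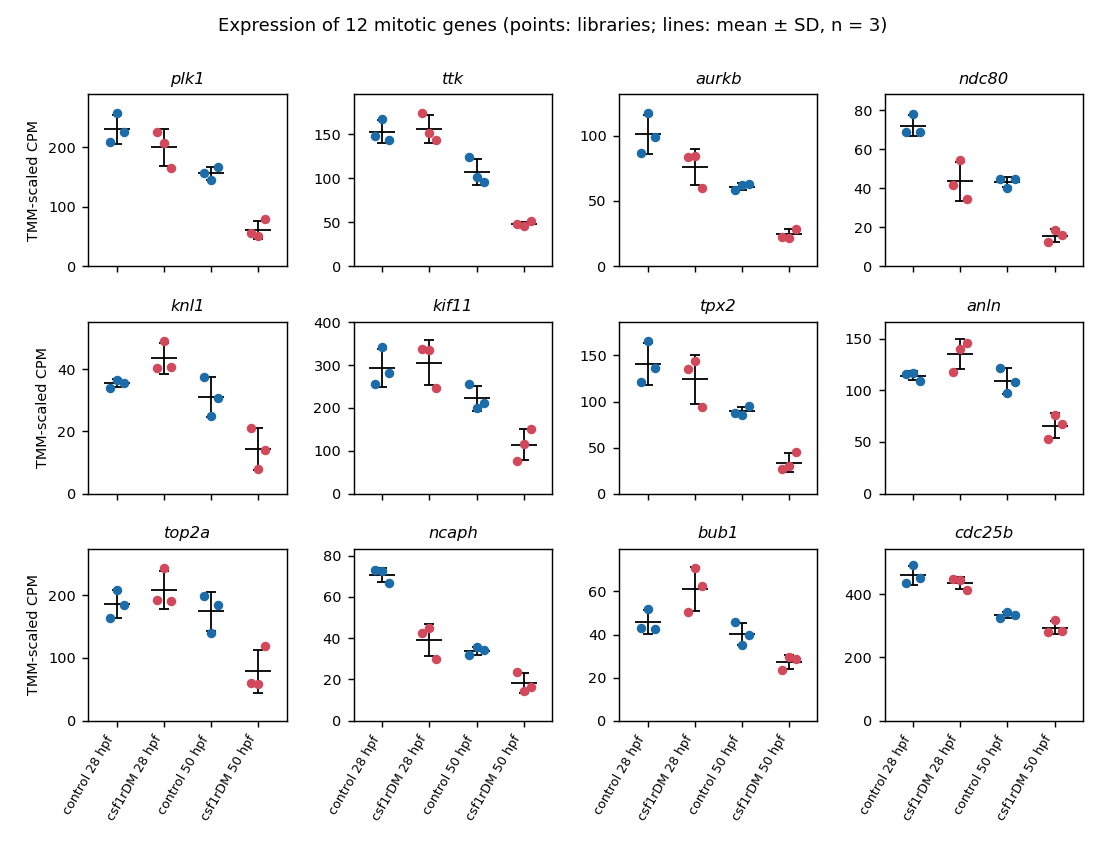
TMM-scaled CPM (y axis, from 0) of 12 mitotic genes in the 4 groups, with a point per library and lines at the mean ± SD (n = 3). For ttk, tpx2 and kif11 the genotypes overlap at 28 hpf and separate at 50 hpf, ncaph is lower in csf1rDM at both stages, and cdc25b differs more between stages than between genotypes.

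No gene of the last role, the APC/C regulators, separase and CDC25, passed both thresholds at 50 hpf by edgeR (0 of 4), and 1, fbxo5, did by DESeq2. All 4 values were below 0, with 2 at an adjusted p under 0.05 by edgeR, where 11.4% of all genes were lower. At an unadjusted p under 0.05 there were 3, a limit at which the share of all genes is not given here. The median log2 fold change was -0.49. The cdc25b gene (ENSDARG00000010792), for the phosphatase that activates CDK1, gave 434, 492 and 449 CPM in control against 446, 444 and 412 CPM in csf1rDM at 28 hpf and 325, 343 and 335 against 279, 317 and 284 CPM at 50 hpf. The genotypes overlapped at 28 hpf and did not at 50 hpf, with a log2 fold change of -0.19 ± 0.07 SE (adjusted p by edgeR = 0.088). The APC/C activator gene cdc20 gave 153, 179 and 164 CPM in control against 179, 147 and 128 CPM in csf1rDM at 28 hpf and 94.1, 94.9 and 91.7 against 43.9, 57.1 and 68.6 CPM at 50 hpf. At 50 hpf it was lower without overlap and inside the fold limit (-0.73 ± 0.15 SE with an edgeR adjusted p of 0.00507). The APC/C inhibitor gene fbxo5, for Emi1, gave 22.6, 30.95 and 33.1 CPM in control against 13.6, 19.1 and 12.8 CPM in csf1rDM at 28 hpf and 13.9, 17.7 and 14.3 against 9.34, 2.41 and 5.11 CPM at 50 hpf. Its mutant libraries at 50 hpf were far apart from each other, and the fall missed the threshold (-1.45 ± 0.35 SE with an edgeR adjusted p of 0.0116), which it passed in 4 alternatives, among them without csf1rDM 50 hpf replicate 1 (-2.02). The separase gene espl1 was at 10.0 to 16.4 CPM in control and 6.11 to 14.8 CPM in csf1rDM libraries at 50 hpf, with overlap and a log2 fold change of -0.25 ± 0.28 SE (adjusted p = 0.592). The ubiquitin-conjugating gene ube2c was not analysed here.

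Between 28 and 50 hpf, fold changes were below 0 for 40 of the 41 genes in control and for all 41 in csf1rDM macrophages. In control, 2 of the 41 genes fell and 0 rose, against 2.00% of all genes lower and 4.29% higher, and 23 were lower at an adjusted p under 0.05, against 11.4% of all genes. The 2 were ncaph (2.09-fold lower, log2 fold change -1.06 ± 0.18 SE with an edgeR adjusted p of 0.00086) and spc24 (2.04-fold, -1.03 ± 0.17 SE, adjusted p = 0.000859). The median was -0.60, against 0.05 for all genes, and in 31 genes the 3 libraries at 50 hpf lay below those at 28 hpf, against 23.0% of all genes. The call of spc24 was lost without control 28 hpf replicate 2 or control 50 hpf replicate 1 (log2 fold changes up to -0.93), mad2l1 passed without control 28 hpf replicate 1 (-1.004) and zwilch without csf1rDM 28 hpf replicate 3 (-1.06). Scaling by library totals left 0 calls, and so did leaving out the 4 muscle-rich libraries, which left 1 control library at 50 hpf.

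In csf1rDM macrophages 37 of the 41 genes fell between 28 and 50 hpf and 0 rose, against 3.54% of all genes lower and 4.70% higher. The median log2 fold change was -1.42, against 0.04 for all genes, and 38 genes were lower at an adjusted p under 0.05, against 14.4% of all genes. In 38 genes the stages did not overlap and the later one was lower, which held for 18.6% of all genes, while 18.1% were higher without overlap. The largest falls were those of zwilch (4.96-fold), tpx2 (3.68-fold, -1.88 ± 0.21 SE), ncapg (3.48-fold), spc24 (3.46-fold) and cdca8 (3.44-fold), and ttk had the smallest adjusted p (3.23-fold, edgeR adjusted p = 5.9e-07). The 4 genes that did not pass were cdc25b (-0.57 ± 0.07 SE, adjusted p = 8.48e-05, inside the fold limit), cenpf (-0.99 ± 0.39 SE, 0.0819), espl1 (-0.37 ± 0.28 SE, 0.359) and cenpe (-0.33 ± 0.36 SE, 0.546). The 2 stage comparisons share no library, but each shares its libraries with the genotype comparisons, so the same mutant libraries at 50 hpf enter this count and the 23 above.

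Marker sums of other cell types also differed between the stages. In control libraries the blood progenitor genes summed to 97.8 to 108 CPM at 28 hpf and 49.3 to 60.1 CPM at 50 hpf, the keratinocyte genes to 472 to 727 and 195 to 291 CPM, the neutrophil genes to 363 to 795 and 232 to 272 CPM, and the yolk and liver genes to 55.1 to 61.7 and 10.4 to 12.7 CPM. The neural genes were higher at the later stage, at 75.1 to 95.5 CPM at 28 hpf and 126 to 143 CPM at 50 hpf. In csf1rDM libraries the sums were 128 to 160 and 63.1 to 77.3 CPM for the blood progenitor genes, 717 to 1196 and 408 to 516 CPM for the keratinocyte genes and 61.4 to 117 and 8.74 to 25.5 CPM for the yolk and liver genes. The sums of the other lists overlapped between the stages, 4 lists in control and 6 in csf1rDM. The part of these cells in the stage differences of the mitotic genes was not tested.

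Several calls in csf1rDM were lost when 1 library was left out. The fall of fbxo5 (-1.44 ± 0.36 SE with an edgeR adjusted p of 0.00926) was lost in 15 alternatives, 10 of which left out 1 library (adjusted p up to 0.0605). These were control 28 hpf replicates 2 and 3, the 3 csf1rDM 28 hpf and the 3 control 50 hpf libraries, and csf1rDM 50 hpf replicates 2 and 3. That of anln was lost without csf1rDM 28 hpf replicate 3 or csf1rDM 50 hpf replicate 1 (log2 fold change up to -0.91). That of ect2 was lost without csf1rDM 28 hpf replicate 2 or csf1rDM 50 hpf replicate 1 or 2 (adjusted p up to 0.0167), that of mki67 without csf1rDM 28 hpf replicate 2 or 3 or csf1rDM 50 hpf replicate 1 or 2 (log2 fold change up to -0.87), and that of ncaph without csf1rDM 50 hpf replicate 2 (log2 fold change -0.97). Without csf1rDM 50 hpf replicate 3, cenpf fell as well (-1.66, adjusted p = 0.00401). Fitting only the libraries compared lost zwilch (edgeR adjusted p = 0.0129), knl1 (0.0104) and smc2 (0.0190), along with ect2, ncaph and fbxo5. Other scalings, filters and fits gave counts between 31 and 37. The count was between 33 and 37 when 1 library was left out and 37 without the 4 muscle-rich libraries, 36 of them the same genes, with a median of -1.74.

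**Figure D4:**
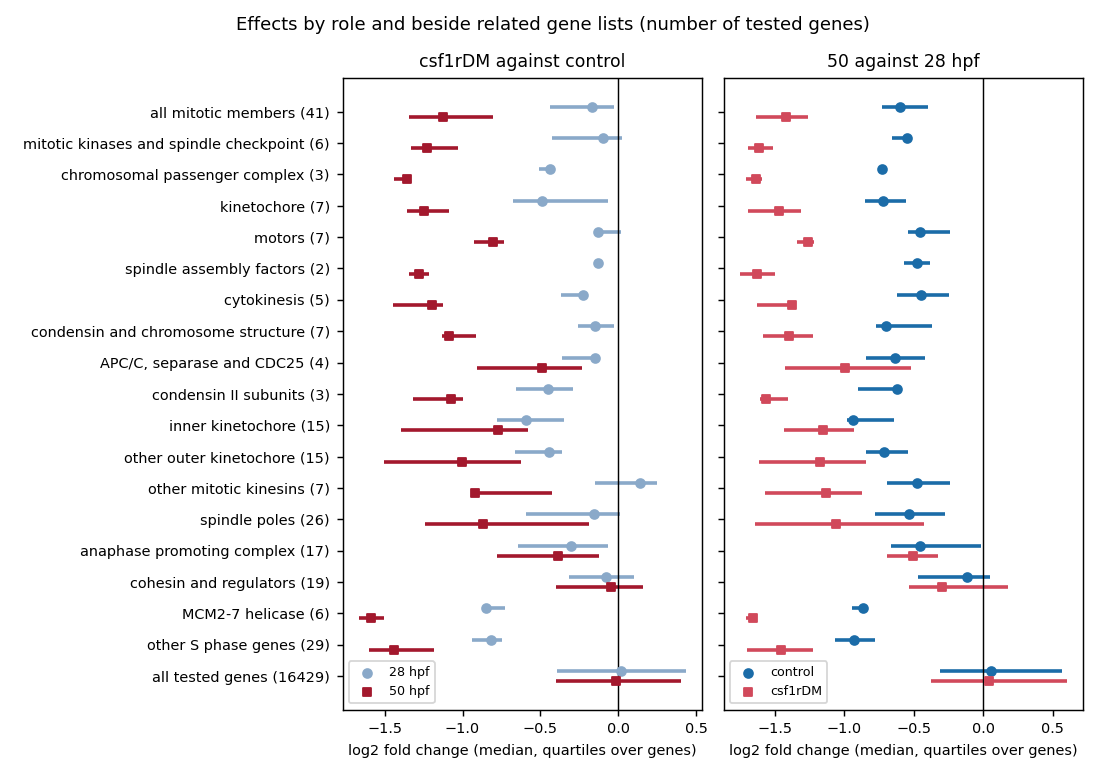
Median log2 fold change (symbols) and quartiles over genes (lines) for the mitotic genes, their 8 roles, related gene lists and all 16429 tested genes, with csf1rDM against control on the left and 50 against 28 hpf on the right, and the number of tested genes in brackets. Most roles lie near -0.1 to -0.5 at 28 hpf and near -1.1 to -1.4 at 50 hpf, while the MCM2-7 and other S phase lists are already near -0.8 at 28 hpf.

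The genotype effect at 50 hpf minus that at 28 hpf, an interaction term fitted across all libraries, was below 0 for all 41 genes, with a median of -0.84 on the log2 scale against -0.03 for all genes. The 41 values share the same 12 libraries. Of the 41, 1 passed the thresholds, against 0.0670% of all genes lower and 0.0913% higher, and 5 passed an adjusted p under 0.05, against 0.542% of all genes lower and 0.377% higher. The gene past the thresholds was ttk (-1.18 ± 0.16 SE with an edgeR adjusted p of 0.00631), and the other 4 were smc4 (-0.80 ± 0.16, adjusted p = 0.0352), anln (-0.97 ± 0.19, 0.0352), plk1 (-1.14 ± 0.23, 0.0378) and cdca8 (-1.09 ± 0.23, 0.0496). In these 5 genes the ratio of csf1rDM to control was between 1.74-fold and 2.27-fold lower at 50 hpf than at 28 hpf. At 28 hpf the log2 genotype effect was above 0 for ttk (0.03) and anln (0.24) and below 0 for the other 3. The interaction values nearest 0 were those of ncaph (-0.05 ± 0.25 SE), espl1 (-0.08 ± 0.39 SE) and cdc25b (-0.11 ± 0.10 SE). With 1 library left out, ttk stayed past the thresholds in 1 of 12 fits and missed them in 11 (adjusted p up to 0.0339). It held without csf1rDM 50 hpf replicate 3 (0.00875), where plk1, top2a and ncapg passed too. Without the 4 muscle-rich libraries 0 passed, with a median of -1.10.

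Within the groups, the libraries kept an order over most of the genes. Control 28 hpf replicate 2 had the highest value of its group for 34 of the 41 genes, csf1rDM 28 hpf replicate 3 the lowest for 32, csf1rDM 50 hpf replicate 3 the highest for 30 and csf1rDM 50 hpf replicate 2 the lowest for 26. The values of the 41 genes within a library were thus not independent of each other. Of the 4, csf1rDM 28 hpf replicate 3 and csf1rDM 50 hpf replicate 3 were also rich in muscle RNA, and control 28 hpf replicate 2 and csf1rDM 50 hpf replicate 2 were not.

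Other genes of the mitotic machinery were taken as 10 lists by function, 135 tested genes that are not among the 41. These lists too were chosen with earlier results of these data known. Of them 36 (26.7%) fell and 1 rose in csf1rDM at 50 hpf, where 3.04% of all genes were lower and 2.29% higher. At 28 hpf 2 (1.48%) fell and 0 rose, against 2.23% and 1.84% of all genes. The looser limit, an adjusted p under 0.05, is given at 28 hpf for the 3 largest lists and for the kinetochore lists. By it 6 of 26 spindle pole, 3 of 19 cohesin and 3 of 17 APC/C genes were lower, against 10.9% of all genes. In the same lists 0, 2 and 0 were higher, against 9.66%. The medians were -0.67 at 50 hpf and -0.30 at 28 hpf, against -0.02 and 0.02 for all genes. Condensin II, which shares smc2 and smc4, had 2 of 3 lower at 50 hpf: ncapd3 fell by 1.56 on the log2 scale (36.8 ± 4.44 to 12.5 ± 5.28 CPM, SD, n = 3, edgeR adjusted p = 0.000509) and ncapg2 by 1.07 (39.6 ± 3.63 to 18.8 ± 2.71 CPM, adjusted p = 0.000188). Of the other outer kinetochore and checkpoint genes 6 of 15 fell, led by ska1 (-2.22) and ska3 (-1.71) of the complex that keeps kinetochores on shrinking microtubules, and trip13, the ATPase that remodels Mad2 (-1.74). The fall of trip13 also passed at 28 hpf, from 24.7 to 9.06 CPM (-1.45 ± 0.32 SE with an edgeR adjusted p of 0.00733). Of the inner kinetochore genes 4 of 15 fell at 50 hpf, among them the centromere subunits cenpu (-1.44) and cenpn (-1.41).

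The spindle pole and microtubule nucleation list had 11 of 26 lower at 50 hpf and 0 at 28 hpf, led by the augmin subunits haus1 (-1.65) and haus6 (-1.58) and by ckap2l (-1.41). Of the other mitotic kinesins 1 of 7 fell, kif15 (-1.25 ± 0.15 SE with an edgeR adjusted p of 9.45e-05), which backs up Eg5. The centriole kinase gene plk4 was the 1 of 7 centriole duplication genes to fall (-1.93 ± 0.42 SE with an edgeR adjusted p of 0.00649). Its csf1rDM libraries were far apart from each other (24.1 ± 1.22 to 6.35 ± 4.45 CPM, SD, n = 3). In this list 1 gene was higher at an adjusted p under 0.05. Of 17 APC/C genes 2 fell, the E2 enzyme gene ube2s (-1.46) and anapc5 (-1.38), and ube2s fell at 28 hpf as well, from 68.5 to 28.7 CPM (-1.26 ± 0.13 SE with an edgeR adjusted p of 4.93e-05). Cohesin stood near 0, with 2 of 19 lower at 50 hpf and a median of -0.05. The 2 were cdca5, the sororin gene (-1.58), and sgo1, the shugoshin that guards centromeric cohesin (-1.15). Among the other cytokinesis genes cep55 (-1.22) and arhgef39 (-1.07) fell and the kinase gene rock2 (ENSDARG00000017500) rose (1.197 ± 0.16 SE, 41.3 to 94.7 CPM, edgeR adjusted p = 0.000253), which made it the 1 gene of the 10 lists that was higher. The other ID with the symbol rock2, ENSDARG00000004877, did not rise past the thresholds. Of the regulators of mitotic entry and exit 5 of 15 fell, led by wee1 (-1.52), cks1b (-1.44) and cks2 (-1.39).

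Of the regulators of G2 and M transcription, 2 of 19 were lower at 50 hpf by the thresholds, against 3.04% of all genes. The 2 were mybl2, the B-Myb gene (-1.50 ± 0.12 SE, 40.5 ± 2.18 to 14.3 ± 1.34 CPM, edgeR adjusted p = 6.95e-06), and nfyb, a subunit of the CCAAT-binding factor (-1.63, adjusted p = 4.56e-05), which also fell at 28 hpf (-1.11, adjusted p = 0.000684). The foxm1 gene, for a forkhead activator of mitotic genes in mammals, averaged 1.14 CPM in control and 0.499 CPM in csf1rDM libraries at 28 hpf. At 50 hpf it averaged 1.01 and 0.259 CPM. At these low levels its log2 fold changes of -1.19 and -1.96 were beyond the fold limit but did not pass (edgeR adjusted p = 0.406 and 0.186). For comparison, S phase genes were lower at both stages. Of the 6 tested MCM2-7 helicase genes 1 fell at 28 hpf and 6 at 50 hpf (medians -0.85 and -1.58). Of 29 other S phase genes 7 and 26 fell (medians -0.82 and -1.44), where 2.23% and 3.04% of all genes were lower. At 28 hpf 25 of the 29 had an adjusted p under 0.05, against 7 of the 41 mitotic genes, and 10.9% of all genes were lower by that limit. The difference between the S phase and the mitotic lists was not tested.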

How the data were processed

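RNA from mpeg-GFP+ cells, sorted from trypsin-dissociated pools of embryos, was amplified with the SMART-seq v4 kit and sequenced paired-end. Per the submitters' processing notes, the tools were CASAVA 1.8, cutadapt, STAR 2.5.4b, Cufflinks 2.2.1, HTSeq 0.11.0 and edgeR with the GRCz10 build. The authors deposited 1 table of raw counts per Ensembl gene ID, with 1 column per library and no normalization. Whether the counting used strand is not given in the sources used here. Paired-end reads without molecular identifiers are not independent molecules, so counting limits cover counting error only.

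Groups came from the sample labels. Symbols came from a table of gene names in which 27000 IDs carry a symbol: 20 IDs matched the members' symbols as written, 18 in capitals and 4 by a human symbol or without the paralogue letter (BIRC5, KIF4A and both PRC1 IDs). The symbols incenp and ube2c matched no counted ID. The members, roles and gene lists were chosen with earlier results of these data known, so no test over a list was run.

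The 16429 genes kept by filterByExpr, applied by group, were fitted over all 12 libraries with edgeR 4.0.16 in R 4.3.3 (TMM scaling, a mean per group, quasi-likelihood F test, Benjamini-Hochberg adjustment within each contrast). The standard error is the log2 fold change divided by the root of F. Thresholds were an adjusted p under 0.01 and an absolute log2 fold change above 1, the limits the study gives for its differentially expressed genes. The script was tested on simulated data. In-library values were given, by rule, for the 2 genes of each role with the highest mean CPM and for genes past the thresholds in the interaction, at 28 hpf or in a stage contrast, or with opposite genotype effects of which 1 had an adjusted p under 0.05. The others were added. Of the related lists, at most 3 genes past the thresholds were named, those with the largest change, apart from 1 gene that is not reported here. Alternatives were DESeq2 1.42.0, other scalings and filters, only the compared libraries, the replicate number as a block and each library left out. A fit without the 4 muscle-rich libraries was added after the data were seen. Replicate numbers were checked for pairing, and no replicate pair agreed within sampling noise (chi-square per degree of freedom 5.3 to 25.6). Chromosomal positions were not used, since the gene table at hand is of another build.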

Additional observations from a re-analysis of the deposited data

Results flagged for a closer look

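The genotype effect differed between 28 and 50 hpf for 5 of the 41 mitotic genes at an adjusted p under 0.05 in edgeR's interaction test, each lower at 50 hpf. Of all genes, 0.542% were lower and 0.377% higher by this rule. The difference of the log2 fold changes was -1.18 for ttk, -1.14 for plk1, -1.09 for cdca8, -0.97 for anln and -0.80 for smc4. The difference for ttk, with libraries of ttk in csf1rDM at 50 hpf between 46.0 and 51.0 CPM, was the only 1 of the 5 past both thresholds. This call was lost in 12 alternatives (edgeR adjusted p between 0.0127 and 0.0339), among them most fits that left out 1 library.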

How the results depend on the processing

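Every count and median was recomputed under 20 alternatives, 19 for the interaction, that changed the fit, and with an adjusted p under 0.05 and no fold limit. That looser limit gave 7 lower genes at 28 hpf, 37 at 50 hpf, 23 for the stage effect in control and 5 in the interaction. Leaving out 1 library at a time gave 0 to 1 lower genes at 28 hpf, 17 to 27 at 50 hpf, 1 to 3 for the stage effect in control, 33 to 37 for that in csf1rDM and 0 to 4 in the interaction. Other scalings, filters and fits gave 17 to 26 lower genes at 50 hpf and 31 to 37 for the stage effect in csf1rDM. The interaction count was 2 with no filter on low counts and 6 with DESeq2, and scaling by library totals left 0 for the stage effect in control. Scaling by library totals also moved the median of all genes for the stage effects from 0.05 and 0.04 to 0.15 and 0.15. Without the 4 muscle-rich libraries the counts were 15 at 50 hpf, 0 for the stage effect in control and 0 in the interaction, and the medians were -1.74 for the stage effect in csf1rDM and -1.10 in the interaction. Over the 63 calls of single genes, 1176 of 1259 planned repeats at the same thresholds passed them, 83 did not and 0 reversed. Signs changed in some planned fit for 9 genes at 28 hpf, for cenpf and espl1 at 50 hpf, for anln, cenpe, kifc1 and top2a in the stage effect in control, for cenpe, espl1 and ncaph in the interaction and for 0 in the stage effect in csf1rDM, all of them uncalled there.

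Same-numbered libraries did not deviate together throughout: their correlations were between -0.357 and 0.168 over 18 pairs, 4 of them above 0.1. Of the 12 libraries, 6 correlated best with their own number. With 3 libraries a group, this check does not settle whether the number pairs samples. With the replicate number as a block, the counts were 0 at 28 hpf, 23 at 50 hpf, 2 for the stage effect in control, 36 for that in csf1rDM and 0 in the interaction. With 3 libraries a group, differences near the fold limit could not be placed on either side of it. Among the 41 tested mitotic genes, the lowest mean level was that of zwilch in csf1rDM at 50 hpf (1.94 to 2.82 CPM), with an SE of 0.39 against a median of 0.18 over them.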
